A study of Mus musculus with 10 samples.

Results

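The 37 transcripts of the mouse mitochondrial genome are described here: 13 messenger RNAs, 2 ribosomal RNAs and 22 transfer RNAs. They were taken as every gene whose symbol starts with mt-, and all 37 mitochondrial genes of the annotation had a row among the 28871 genes of the table. The samples were whole hippocampus of male, wild type C57BL/6J mice aged 2 months. In the Visudyne group (5 samples, numbered 3, 6, 9, 12 and 15) the photosensitizer verteporfin was injected into the cisterna magna and activated by 689 nm red light above the intact skull, which ablates meningeal lymphatic vessels. The vehicle group (5 samples, numbered 1, 4, 7, 10 and 13) received vehicle instead and the same light. Both groups had the procedure again after 2 weeks, and tissue was taken 2 weeks after the last one. The labels do not say that each sample is 1 animal, so that the p-values measure the spread between these samples, which may be technical.

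Mitochondria keep a small circular genome of their own, which nuclear-encoded RNA polymerase (Polrmt) transcribes from both strands as long precursor RNAs. Each precursor carries many genes, and excision of the tRNAs that lie between them releases most mRNAs and rRNAs. All 13 mRNAs encode subunits of the respiratory chain or of ATP synthase, and the rRNAs and tRNAs serve the ribosomes that translate them inside the organelle. In the hippocampus, where synaptic signalling depends on oxidative phosphorylation, neurons hold many mitochondria.

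Total counts ranged from 51165271 to 68895223 per sample. The 10 hippocampal neuron markers were present in all samples, with a summed level, in CPM (counts relative to a TMM-adjusted library size), of 1784 to 2160 in vehicle and 1938 to 2160 in Visudyne samples. Vehicle 7 stood apart: all 6 of 6 markers of the choroid plexus, the epithelium in the ventricle beside the hippocampus, were highest there, and their sum was 215 CPM against at most 42.0 CPM in the other vehicle samples and 24.5 to 50.1 CPM in Visudyne samples. None of the 6 was at 0 in any sample, the lowest being 2 counts. The 7 fibroblast markers summed to 41.4 to 102 CPM in vehicle and to 110 to 141 CPM in Visudyne samples, without overlap. Col1a1, Col3a1, Slc47a1 and Col1a2 each separated upward, as 0.319% of all tested genes did, while Dcn, Slc6a13 and Lum overlapped between the groups. The 5 blood markers summed to 5.56 to 18.1 CPM in vehicle and 4.18 to 30.0 CPM in Visudyne samples.

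The strands of the genome differ in what they carry. In the mm10 annotation the plus strand holds 12 mRNAs, both rRNAs and 14 tRNAs, and the minus strand holds mt-Nd6 and 8 tRNAs. The tRNA sequences below are those with the most counts on the minus strand, 2 plus-strand neighbours of these, and mt-Tk, the tRNA between mt-Co2 and mt-Atp8. The letters are those of the GENCODE M21 transcripts (mm10), written 5′ to 3′ on each gene's own strand, with the anticodon in capitals. The anticodon was found as the triplet that reads the tRNA's codon family, preceded by T in the middle of the gene.
mt-Ts1: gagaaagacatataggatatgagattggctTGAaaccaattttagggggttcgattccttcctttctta
mt-Td: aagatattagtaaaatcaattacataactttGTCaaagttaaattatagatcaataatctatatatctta
mt-Tp: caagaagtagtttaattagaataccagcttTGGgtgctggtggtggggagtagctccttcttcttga
mt-Tt: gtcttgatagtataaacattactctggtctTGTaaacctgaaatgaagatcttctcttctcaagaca
mt-Tc: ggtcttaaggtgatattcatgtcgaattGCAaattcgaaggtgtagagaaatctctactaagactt
mt-Tk: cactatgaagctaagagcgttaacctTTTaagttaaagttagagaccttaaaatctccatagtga
The serine tRNA mt-Ts1 lies at chrM:6870-6938 on the minus strand and the aspartate tRNA mt-Td at chrM:6942-7011 on the plus strand. The proline tRNA mt-Tp (chrM:15356-15422, minus) directly follows the threonine tRNA mt-Tt (chrM:15289-15355, plus). The cysteine tRNA mt-Tc (chrM:5192-5257, minus) stands in the cluster of 4 minus-strand tRNAs before mt-Co1, and the lysine tRNA mt-Tk is at chrM:7700-7764 on the plus strand.

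Genes overlap in 9 places, and the largest overlap, of 43 bases, is that of mt-Atp8 and mt-Atp6. Both encode subunits of ATP synthase and share an mRNA. The whole of mt-Atp8 (chrM:7766-7969, plus) is shown with the bases it shares with mt-Atp6 in capitals, since reads there fit both genes.
mt-Atp8: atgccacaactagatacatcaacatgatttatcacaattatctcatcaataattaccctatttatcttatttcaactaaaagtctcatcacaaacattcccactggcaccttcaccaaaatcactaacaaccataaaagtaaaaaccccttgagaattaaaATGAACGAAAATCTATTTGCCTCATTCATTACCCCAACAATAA
Of the overlaps between opposite strands, mt-Nd5 and mt-Nd6 share 14 bases at their ends, shown in capitals in the last 60 bases of each (chrM:13506-13565 on the plus strand and chrM:13552-13611 on the minus strand).
mt-Nd5: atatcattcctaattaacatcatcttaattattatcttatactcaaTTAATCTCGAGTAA
mt-Nd6: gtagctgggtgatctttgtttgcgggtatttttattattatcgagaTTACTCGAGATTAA
The last 3 bases of mt-Co1, its stop codon, are shared with mt-Ts1 on the other strand and stand in capitals at the end of its last 60 bases (chrM:6813-6872, plus).
mt-Co1: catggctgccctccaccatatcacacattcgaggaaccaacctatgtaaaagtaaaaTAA
The kit used marks strand, but no source used here says whether the counting used it. Without strand, reads of a gene and of its partner on the other strand cannot be told apart.

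The 3 RNA classes differed by orders of magnitude in level. The 2 rRNAs took 17.8% to 21.5% of all counts of a library, the 13 mRNAs 1.62% to 2.20%, and the 22 tRNAs 0.00674% to 0.0109%. The widest 95% Wilson interval of a single sample was ± 0.0111 percentage points for rRNA, ± 0.00401 for mRNA and ± 0.000285 for tRNA, which covers counting error only. As background, mature tRNAs are short and carry modified bases; how well these libraries recovered them was not tested.

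**Figure D1:**
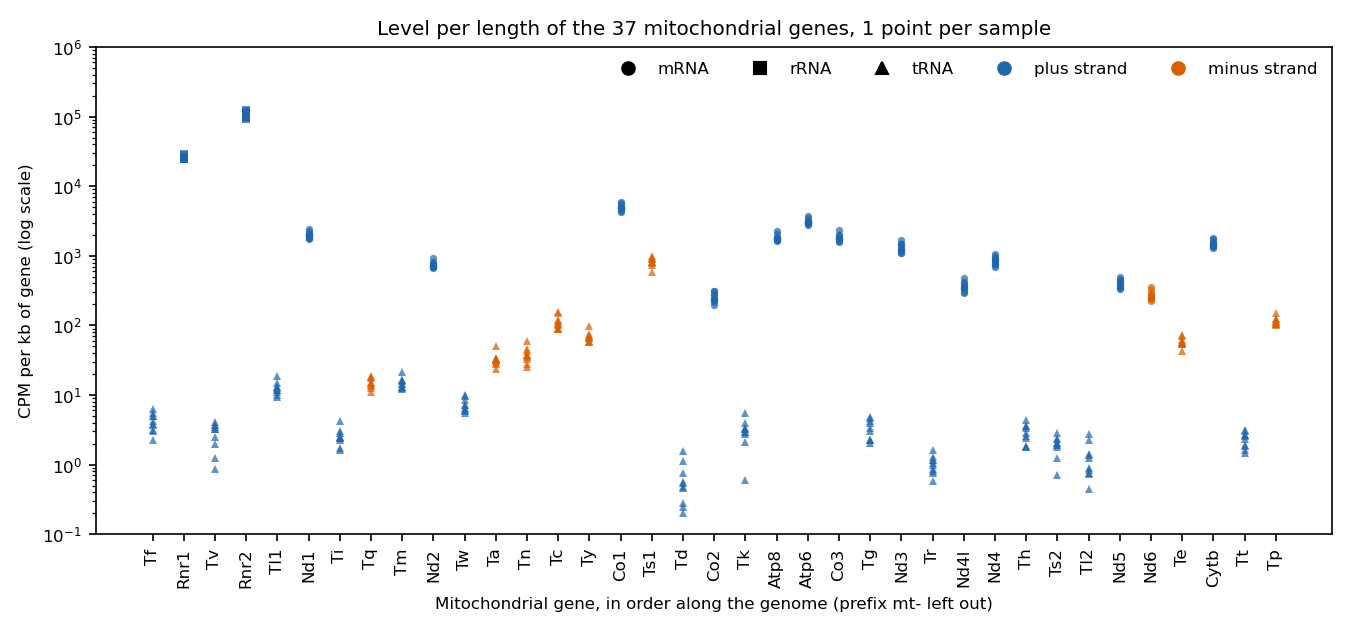
Level of each of the 37 mitochondrial genes as CPM per kb of gene (log axis), in order along the genome, with 1 point for each of the 10 samples. Squares are rRNAs, circles mRNAs and triangles tRNAs; blue marks the plus and orange the minus strand, and the minus-strand tRNAs lie above most of the plus-strand tRNAs.

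Of the rRNAs, the large-subunit RNA mt-Rnr2 (chrM:1094-2675) was the most abundant transcript of the libraries. It alone took 15.4% to 18.8% of all counts. Per length it stood 3.63 to 4.798 times above the small-subunit RNA mt-Rnr1 (chrM:70-1024), with 108345 ± 11498 and 26009 ± 1583 CPM per kb (SD, n = 10). Both belong to the same transcription unit. No source used here says how rRNA was depleted, so that this ratio describes these libraries and not the cells.

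Among the mRNAs, levels per length spanned from 4993 ± 534 CPM per kb for mt-Co1 to 252.4 ± 38.6 CPM per kb for mt-Co2 (SD, n = 10). mt-Co1, the catalytic subunit of cytochrome c oxidase (complex IV), held 39.2% to 43.2% of all mitochondrial mRNA counts. The next in order was mt-Atp6 (3126 ± 276 CPM per kb), the proton channel subunit of ATP synthase. Both were above the following gene in all 10 samples, with ranges that did not overlap.

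Below them came mt-Nd1 (1990 ± 209 CPM per kb), mt-Atp8 (1826 ± 191), mt-Co3 (1823 ± 213), mt-Cytb (1505 ± 170) and mt-Nd3 (1324 ± 197). The ranges of neighbours in this group overlapped, and mt-Atp8 exceeded mt-Co3 in 4 of 10 samples. mt-Cytb is the cytochrome b of complex III, mt-Co3 a core subunit of complex IV, and the mt-Nd genes encode subunits of complex I (NADH dehydrogenase). Lower again were the complex I genes mt-Nd4 (859 ± 115 CPM per kb), mt-Nd2 (745 ± 79.5), mt-Nd5 (403 ± 53.7), mt-Nd4l (367 ± 56.9) and mt-Nd6 (272 ± 39.5). mt-Nd6 and mt-Co2, the last 2 in order, had overlapping ranges, and mt-Nd6 was the higher in 7 of 10 samples.

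mt-Co2 encodes the subunit of complex IV that receives electrons from cytochrome c. It measured 15.6 to 26.01 times less per length than mt-Co1 and 5.55 to 9.53 times less than mt-Co3, in each of 10 samples. For 11 of the 13 mRNAs, all but mt-Nd1 and mt-Atp8, the annotation lists nuclear pseudogenes that match at 90% identity or more over at least 100 bases. For mt-Co2 these are Gm28661 on chromosome 1 (100% identical over 681 of 684 bases) and Gm13341 on chromosome 2 (95.9% over 684 bases). Gm28437 matches mt-Co3 (100% over 783 of 784 bases) and Gm10925 matches mt-Atp6 (100% over 678 of 681 bases), so that mt-Co2 is not alone in this. Of the 17 pseudogenes 6 were among the genes with deposited values, with at most 127 counts per sample (Gm13340, a copy of mt-Co1). The other 11, Gm28661 among them, had no values there and could not be analysed. The part of such copies in the level of mt-Co2 was not tested.

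Genes that share an mRNA did not have equal levels. mt-Nd4l and mt-Nd4, which overlap by 7 bases and are translated from the same mRNA, differed per length, with mt-Nd4 2.20 to 2.52 times higher. mt-Atp6 was 1.63 to 1.79 times above mt-Atp8 per length. In both pairs the shorter gene was the lower one, in 10 of 10 samples, and the part of gene length in this was not tested.

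mt-Nd6, the only mRNA of the minus strand, measured less than its plus-strand neighbour mt-Nd5 in every sample, by 1.35 to 1.59 times per length.

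The tRNAs differed by strand. The 8 minus-strand tRNAs held 94.9% to 96.0% of the tRNA counts of each library, and the 14 plus-strand tRNAs the rest. Mean counts per sample ran from 62.4 (mt-Tq, glutamine) to 3311 (mt-Ts1) on the minus strand, with a median of 251, and from 2.5 (mt-Td) to 60.4 (mt-Tm, methionine) on the plus strand, with a median of 11.1. Each of the 8 minus-strand means therefore lay above each of the 14 plus-strand means, although some ranges over the samples overlapped. The range of mt-Tq (41 to 93 counts) overlapped those of mt-Tm (42 to 105) and the leucine tRNA mt-Tl1 (36 to 70). Those of mt-Ta (82 to 176) and mt-Tn (99 to 268) also overlapped that of mt-Tm.

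mt-Ts1 alone held 58.8% to 64.3% of tRNA counts. Without it, the other minus-strand tRNAs still had 6.27 to 7.96 times the counts of all plus-strand tRNAs together. Next in mean count were mt-Tp (448), mt-Tc (429), the tyrosine tRNA mt-Ty (269), the glutamate tRNA mt-Te (232), the asparagine tRNA mt-Tn (157) and the alanine tRNA mt-Ta (130). The contrast was steepest between the neighbours mt-Ts1 and mt-Td printed above: mt-Ts1 had 2029 to 4060 counts per sample and mt-Td 1 to 6. mt-Tp had 378 to 585 counts and its neighbour mt-Tt 5 to 13. Counts of mt-Ts1 equalled 0.588% to 0.824% of those of mt-Co1, the gene whose end it overlaps. Whether the tRNA reads are mature tRNAs, precursors or RNA of the other strand was not tested. Members of 1 strand share a precursor and are not independent of each other.

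Against this background the groups were compared. None of the mitochondrial genes passed the test for a difference between Visudyne and vehicle. Of the 37 genes 33 passed the filter on low counts, and the 4 that did not were the plus-strand tRNAs mt-Td, mt-Tr (arginine), mt-Ts2 (serine) and mt-Tl2 (leucine), with at most 14 counts in a sample. At an adjusted p under 0.05 in edgeR's quasi-likelihood test over 19093 genes, 0 of the 33 were higher and 0 lower, where 0.021% of all tested genes were called higher and 0% lower. At an unadjusted p under 0.05 edgeR counted 0 of the 33, against 325 of the 19093 genes. DESeq2 and limma voom also called 0, with 2 and 1 of the 33 at an unadjusted p under 0.05, against 316 and 376 of all tested genes. With 1 sample left out edgeR again called 0, and the members at an unadjusted p under 0.05 numbered 4 without vehicle 10 (287 of all genes), 2 without vehicle 13 (417 of all genes) and 0 without any other sample. In none of the 33 did the 2 groups separate, where 0.319% of tested genes had every Visudyne value above every vehicle value and 0.115% had every one below.

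Point estimates lay mostly below 0. The log2 fold change, Visudyne minus vehicle, was negative for 13 of 13 mRNAs (median -0.07), 2 of 2 rRNAs (-0.12) and 14 of 18 tested tRNAs (-0.09), against 48.9% of all tested genes (median 0.0022). By strand, 21 of 24 plus-strand genes (median -0.08) and 8 of 9 minus-strand genes (median -0.09) were negative. CPM are relative to the library total. A different mix of cells, fewer mitochondria per cell and less RNA per mitochondrion would give the same value in bulk tissue. These cannot be told apart. No source used here says how rRNA was depleted, and the part of library preparation in these values was not tested. The mt-Nd3 log2 fold change was above 0 under upper-quartile factors (2.96e-05), when every gene was kept (0.0014) and when at least 1 CPM in 5 samples was required (0.0070). Without vehicle 7, 7 of 13 mRNAs and 18 of 33 members were negative, and the mRNA median was -0.02. The part of the choroid plexus markers of vehicle 7 in this was not tested.

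**Figure D2:**
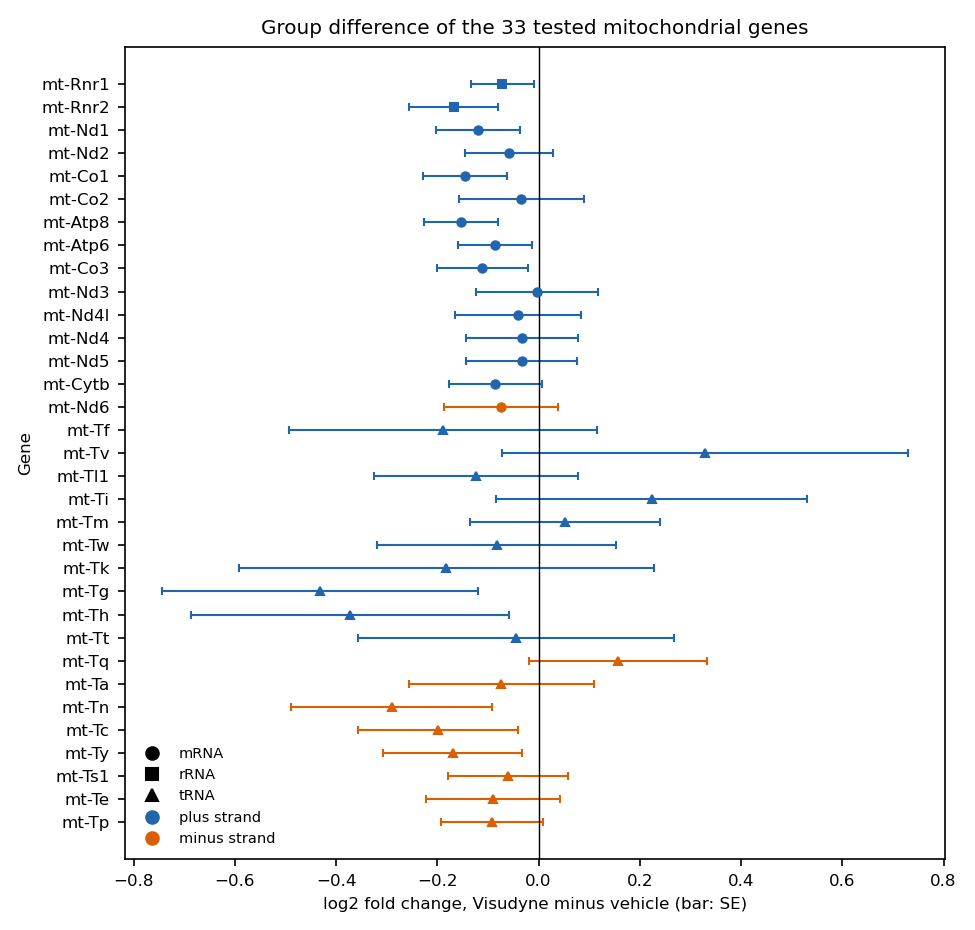
Log2 fold change (Visudyne minus vehicle) of the 33 tested mitochondrial genes, with bars of 1 SE from edgeR's fit. The 13 mRNAs lie between -0.15 and -0.003, while the tRNAs of low count have SEs of up to 0.41.

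For the rRNAs, mt-Rnr2 measured 198514, 191937, 185373, 172302 and 158518 CPM in vehicle 1, 4, 7, 10 and 13. In Visudyne 3, 6, 9, 12 and 15 it measured 174196, 156237, 151700, 181047 and 144193 CPM. The 3 highest samples were all vehicle and the 3 lowest all Visudyne, with the ranges overlapping in between. The log2 fold change was -0.17 (SE 0.09, edgeR adjusted p = 0.9999). For mt-Rnr1 the vehicle mean was 25453 ± 1876 CPM and the Visudyne mean 24224 ± 822 CPM (SD, n = 5 each; -0.07, SE 0.06).

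As shares of all counts, the 2 rRNAs together made 20.3 ± 1.21% in vehicle and 18.8 ± 0.956% in Visudyne samples. The 13 mRNAs made 1.92 ± 0.211% and 1.84 ± 0.146%, and the 22 tRNAs 0.00921 ± 0.00156% and 0.00896 ± 0.000436% (SD, n = 5 each). All 3 classes overlapped between groups. The rRNA difference of -1.51 percentage points was larger than the SD of either group, and the mRNA difference of -0.0782 points was smaller than both. As a sum over genes, neither was tested. Relative to the counts of nuclear genes alone, the differences were -2.45 percentage points for rRNA and -0.1525 for mRNA. With vehicle 7 left out, the mRNA difference in the share of all counts was -0.0099 points.

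**Figure D3:**
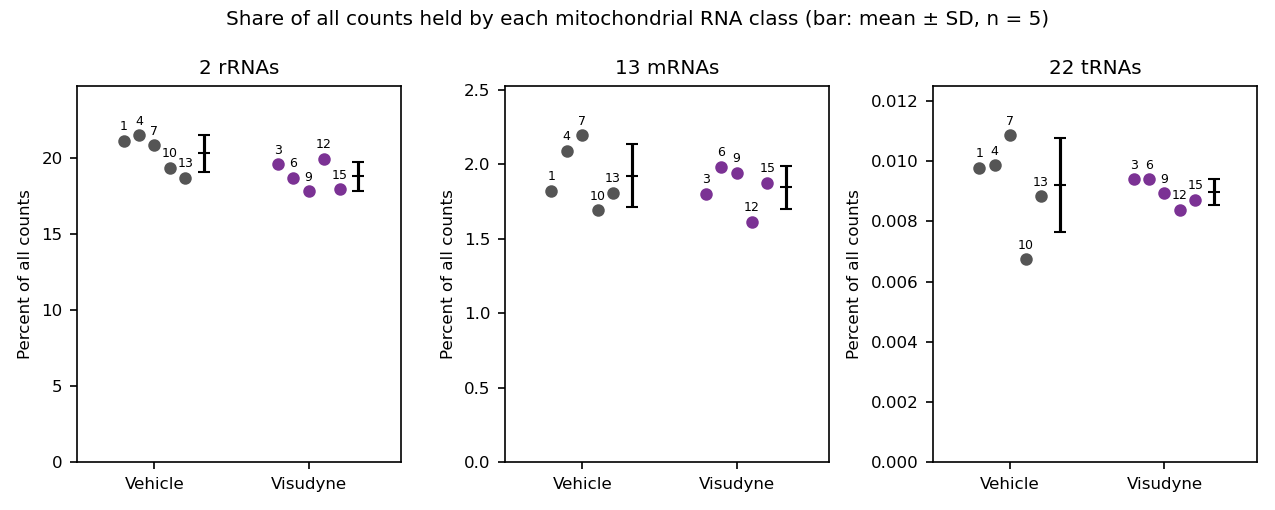
Percent of all counts in the 2 rRNAs, 13 mRNAs and 22 tRNAs for each sample, labelled by its number, with mean ± SD beside each group (n = 5). Samples of both groups overlap in all 3 classes; vehicle 7 has the highest mRNA share (2.20%) and Visudyne 12 the lowest (1.62%).

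Among genes of ATP synthase, mt-Atp8 had the smallest p of the members. It measured 373, 424, 459, 363 and 343 CPM in vehicle 1, 4, 7, 10 and 13, and 365, 355, 365, 348 and 332 CPM in Visudyne 3, 6, 9, 12 and 15. Vehicle 1, 4 and 7 lay above all Visudyne samples, vehicle 10 among them, and vehicle 13 below all but Visudyne 15. The log2 fold change was -0.15 (SE 0.07, unadjusted p = 0.0603, edgeR adjusted p = 0.9999), and mt-Atp6 had -0.09 (SE 0.07).

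In complex IV, mt-Co1 measured 8313, 9061, 8896, 6819 and 7417 CPM in vehicle 1, 4, 7, 10 and 13. The Visudyne samples 3, 6, 9, 12 and 15 measured 7519, 7879, 7487, 6601 and 7147 CPM. Vehicle 1, 4 and 7 were above all Visudyne samples, and vehicle 10 was below all but Visudyne 12. The log2 fold change was -0.14 (SE 0.08). mt-Co3 had -0.11 (SE 0.09), and mt-Co2 -0.03 (SE 0.12). mt-Co2 was highest in Visudyne 9 (212 CPM) and vehicle 4 (211 CPM) and lowest in Visudyne 6 (134 CPM).

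In complex III, the mt-Cytb mean was 1773 ± 243 CPM with vehicle and 1671 ± 139 CPM with Visudyne (SD, n = 5 each; log2 fold change -0.09, SE 0.09).

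In complex I, mt-Nd1 had a log2 fold change of -0.12 (SE 0.08), beyond 1 SE, and mt-Nd2 of -0.06 (SE 0.09). mt-Nd3 (-0.0030, SE 0.12), mt-Nd4 (-0.03, SE 0.11), mt-Nd4l (-0.04, SE 0.12), mt-Nd5 (-0.03, SE 0.11) and mt-Nd6 (-0.07, SE 0.11) were, like mt-Nd2, each nearer to 0 than 1 SE. Over all 13 mRNAs, 8 differed by less than their SE. The vehicle samples spread more than the Visudyne samples in 11 of the 13 mRNAs, a difference in spread that was not tested.

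Levels also differed between single samples. A range over all samples is never smaller than the difference of the group means, so that it does not weigh on the group comparison. The ratio of the highest to the lowest sample was 1.31 (mt-Atp6) to 1.61 (mt-Nd4l) for mRNAs, and 1.18 and 1.38 for mt-Rnr1 and mt-Rnr2. Vehicle 7 was the highest sample for 10 of the 13 mRNAs and Visudyne 12 the lowest for 7. mt-Nd3 differed from these mRNAs in Visudyne 12, which was its highest sample, at 595 CPM. It measured 383 to 505 CPM in the other Visudyne samples and 401 to 514 CPM in vehicle samples, with vehicle 7 the highest of these. Among the Visudyne samples, mt-Rnr2 (181047 CPM) and mt-Rnr1 (25178 CPM) were also highest in Visudyne 12. The complex I gene mt-Nd4, a little further along the same precursor, was lowest in Visudyne 12, at 959 CPM, against 1154 to 1291 CPM in the other Visudyne samples and 1019 to 1466 CPM in vehicle samples. Per length, mt-Nd4 stood at 0.407 to 0.852 of mt-Nd3 over the 10 samples.

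**Figure D4:**
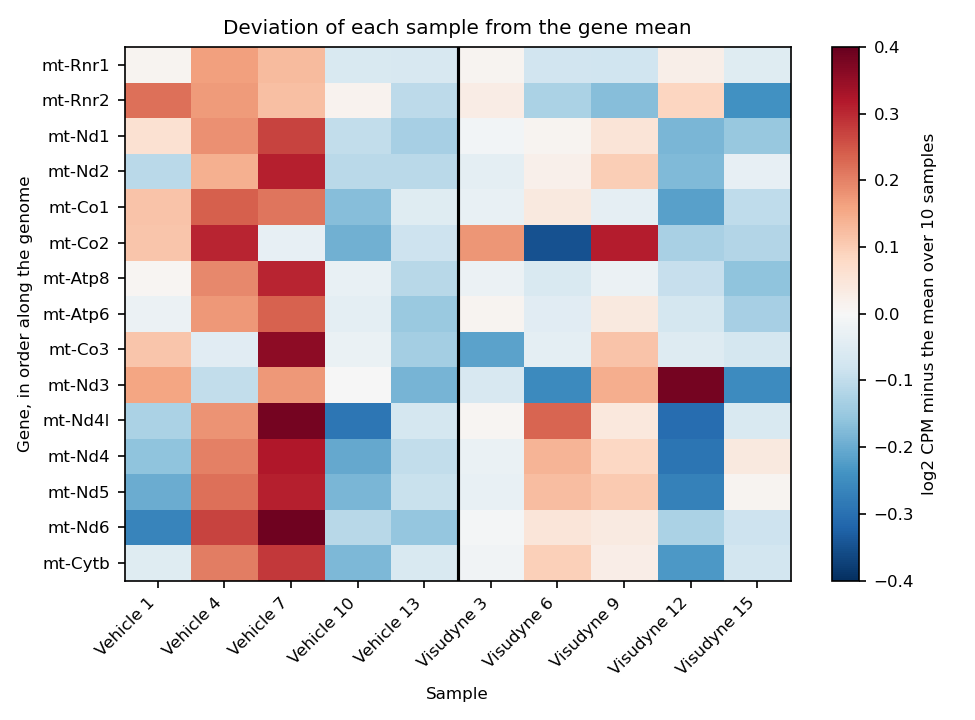
Log2 CPM of the 15 mitochondrial mRNAs and rRNAs in each sample minus the gene's mean over the 10 samples (red above, blue below; vehicle left and Visudyne right of the line). Vehicle 7 is above the mean for all genes but mt-Co2, and in Visudyne 12 mt-Nd3 is high while mt-Nd4, mt-Nd5 and mt-Nd4l are low.

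Ratios between neighbours within a library do not depend on library scaling. In log2 units, mt-Rnr2 to mt-Rnr1 was 2.83 ± 0.0989 in vehicle and 2.73 ± 0.0997 in Visudyne samples (difference -0.10, exact two-sided permutation p = 0.175, n = 5 each). The first mRNA beyond the rRNAs, mt-Nd1, stood at -6.52 ± 0.120 and -6.46 ± 0.191 relative to mt-Rnr2 (difference 0.05, exact permutation p = 0.603). Across the strands, mt-Nd6 stood at -2.37 ± 0.0724 and -2.40 ± 0.0984 relative to mt-Nd5 (difference -0.03, exact permutation p = 0.651). Adjusted over these 3 ratios the lowest exact permutation p was 0.524, where the smallest unadjusted p of the design is 0.0079. No ratio passed at 0.05, although the mt-Rnr2 to mt-Rnr1 difference was about as large as the SD of either group.

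**Figure D5:**
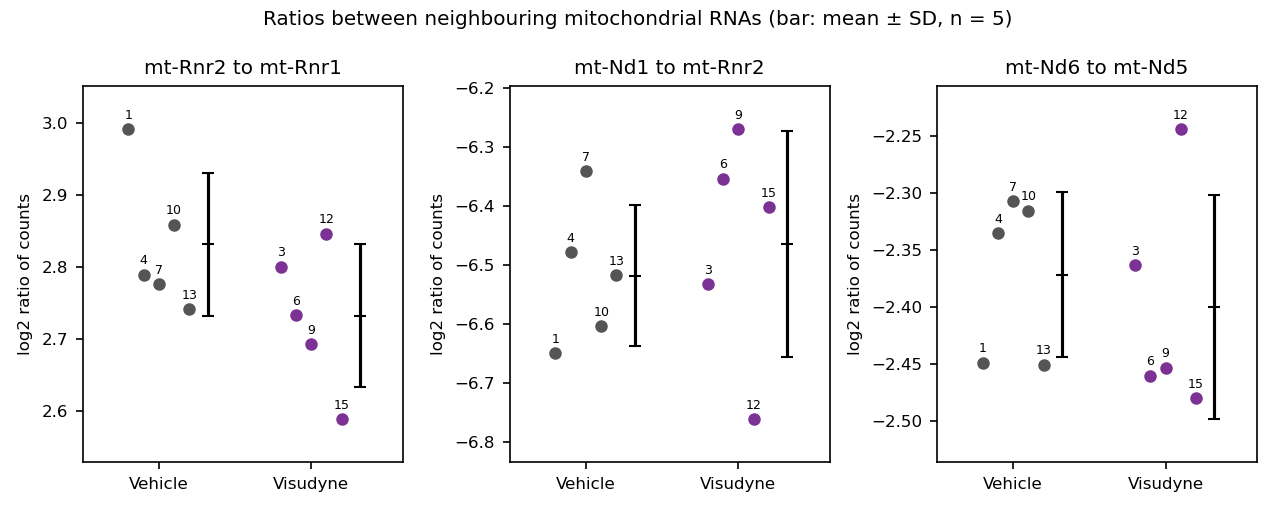
Log2 ratio of counts between 3 pairs of mitochondrial RNAs in each sample, labelled by its number, with mean ± SD (n = 5). The groups overlap in all 3 ratios; the lowest mt-Nd1 to mt-Rnr2 value and the highest mt-Nd6 to mt-Nd5 value both belong to Visudyne 12.

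Of the tRNAs, mt-Ts1 measured 63.2, 64.2, 68.3, 40.1 and 55.3 CPM in vehicle 1, 4, 7, 10 and 13, and 61.4, 56.6, 55.9, 54.4 and 51.01 CPM in Visudyne 3, 6, 9, 12 and 15. Vehicle samples held both the highest and the lowest value, and the log2 fold change was -0.06 (SE 0.12). The 8 minus-strand tRNAs ranged from -0.29 (mt-Tn, SE 0.20) to 0.16 (mt-Tq, SE 0.18), and 7 were negative. The 10 tested plus-strand tRNAs ranged from -0.43 (mt-Tg, glycine, SE 0.31) to 0.33 (mt-Tv, valine, SE 0.40). With mean counts of 12.9 and 11.3 per sample, differences of that size were not detectable in these 2 genes. Over both strands 13 of 18 tRNAs differed by less than their SE, and the lowest unadjusted p was 0.169.

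Nuclear genes that make and keep mitochondrial RNA did not pass either. For this and the following lists, 0.021% of all tested genes were called higher and 0% lower, so that a list of this size would mostly hold 0. Of all tested genes 48.9% were negative. Of 11 mitochondrial transcription genes 0 were called (8 negative, median log2 fold change -0.03). Polrmt, the polymerase, averaged 23.3 ± 1.38 CPM with vehicle and 22.8 ± 1.41 CPM with Visudyne (-0.03). Tfam, the factor that packages mitochondrial DNA and starts transcription, measured 30.1 ± 1.90 and 28.5 ± 1.92 CPM (-0.08, SE 0.06). Tfb2m, which opens the promoter, had -0.04, the topoisomerase Top1mt -0.04 and Mterf1b, of the termination factor family, -0.21 (SE 0.16). Fibroblast marker sums, given above, did not overlap between the groups, although Dcn, Slc6a13 and Lum each did. The part of these markers in the values here was not tested.

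Of 25 tested genes of tRNA processing, modification and RNA maturation 0 were called (17 negative, median -0.02). The 3 of smallest p modify tRNAs: Cdk5rap1 (vehicle 8.51 ± 0.704 and Visudyne 7.68 ± 0.487 CPM, -0.15, SE 0.07), Trmu (-0.14, SE 0.09) and Nsun3 (-0.12, SE 0.08). Of 10 genes of RNA stability and decay 0 were called (9 negative, median -0.03). The Visudyne samples of Angel2, a deadenylase relative, lay below all vehicle samples (vehicle 38.5 ± 0.501 and Visudyne 36.99 ± 0.325 CPM, -0.06, SE 0.04, edgeR adjusted p = 0.9999), a separation seen in 0.115% of all tested genes. Pde12, which removes poly(A) tails in mitochondria, had 0.04, and Mtpap, the mitochondrial poly(A) polymerase, -0.05. Lrpprc, which stabilises mitochondrial mRNAs, measured 98.0 ± 6.58 and 97.2 ± 3.11 CPM (-0.01).

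Of 11 genes of mitochondrial DNA replication and nucleotide supply 0 were called (4 negative, median 0.0087), with Primpol at 0.34 (SE 0.31), the nuclease Mgme1 at 0.09 (SE 0.09) and Polg2, the accessory subunit of the DNA polymerase, at -0.09 (SE 0.11). Of 9 regulators of mitochondrial biogenesis 0 were called (3 negative, median 0.01). The coactivator Ppargc1a averaged 43.1 ± 2.86 CPM with vehicle and 43.96 ± 1.67 CPM with Visudyne (0.03), and Yy1, Pprc1 and Ppargc1b had -0.04, 0.07 and 0.06.

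The nuclear partners of the mitochondrial subunits did not pass the test either. Of 35 nuclear genes of the respiratory chain and ATP synthase 0 were called, where 0.021% of all tested genes were called higher and 0% lower. Of the 35, 27 were negative (median -0.03), against 48.9% of all tested genes. Cox4i1, which sits in complex IV beside the products of mt-Co1, mt-Co2 and mt-Co3, averaged 235.0 ± 22.1 CPM with vehicle and 235.6 ± 24.9 CPM with Visudyne (0.0037). Ndufs1 of complex I had -0.08 (SE 0.08) and Sdhc of complex II -0.05 (SE 0.06). Ndufa9, with -1.18 (SE 1.01), had low levels that varied widely, from 0 to 2.11 CPM over the samples. Its mean was 1.247 ± 0.822 CPM in vehicle and 0.546 ± 0.638 CPM with Visudyne. By comparison Ndufs1 averaged 136 CPM and Cox5a 56.3 CPM in vehicle samples, and Cox5b only 0.331 CPM. Whether the low values of Ndufa9 and Cox5b reflect expression or the assignment of reads was not tested.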

How the data were processed

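Hippocampal RNA was made into stranded total RNA libraries, per the labels' protocols. The deposited values are estimated counts for each Ensembl gene, which the authors made with Salmon (FastQC and build mm10 are named too, per the submitters' processing notes). No source used here gives versions or the annotation release. All values are whole, and the highest, among them those of the rRNAs, were rounded to 6 digits. Symbols and positions came from GENCODE M21 (mm10): 28564 of 28871 identifiers matched.

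Group differences were tested on the deposited counts with edgeR 4.0.16 (R 4.3.3): default low-count filter (19093 genes left), TMM factors, quasi-likelihood F-test without covariate, Benjamini-Hochberg adjustment over all genes, threshold 0.05. SEs derive from the F statistics. CPM use TMM-scaled totals; CPM per kb divides by annotated gene length. Ratios were tested by exact two-sided permutation over all 252 assignments. Near-identical transcripts were sought with BLAST 2.17.0. The procedure was tested on simulated data. Alternatives used DESeq2 1.42.0, limma voom 3.58.1, other normalizations and filters, and leaving out each sample. The members and lists were chosen with earlier results of these data known. Named were all members, the 3 genes of smallest p of each related list, 6 genes whatever their values, and pseudogenes from those with a match of at least 90% identity over at least 100 bases; Malat1 was chosen after its values were seen.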

Additional observations from a re-analysis of the deposited data

Results flagged for a closer look

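In a screen of 80 sets of 5 values (33 genes, 4 shares and 3 ratios, each in both groups), 4 had a single sample far from the other 4 of its group by Dixon's test. Chance flags about 1 in 20 such sets. All 4 were tRNAs in the Visudyne group. The isoleucine tRNA mt-Ti was high in Visudyne 12 (0.288 CPM, next 0.173), on at most 16 counts per sample. The valine tRNA mt-Tv was low in Visudyne 9 (0.0844 CPM, next 0.225). The alanine tRNA mt-Ta was low in Visudyne 9 (1.97 CPM, next 2.19), and the asparagine tRNA mt-Tn in Visudyne 15 (1.79 CPM, next 2.47).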

How the results depend on the processing

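No mitochondrial gene was called, in either direction, under any of the 17 alternatives to edgeR's fit. The medians of the 3 classes stayed negative in all 17. The number of all genes called higher was 4, and 2 with upper-quartile factors, 2 with totals from nuclear genes, 18 with DESeq2, and 0 to 4 with 1 sample left out; the number called lower was 0 to 1 with 1 sample left out. The number called higher was 0 without Visudyne 3, Visudyne 6 or vehicle 7 and 1 without Visudyne 9, 12 or 15 or vehicle 10 or 13, and 1 gene was called lower without vehicle 1. The mt-Nd3 log2 fold change was 0.0014 with no low-count filter, 0.0070 with 1 CPM in 5 samples and 2.96e-05 with upper-quartile factors, and the mt-Tk log2 fold change was 0.044 with limma voom; the cause was not tested. With 1 sample left out, fold changes crossed 0 in mt-Nd2 (-0.093 to 0.019), mt-Co2 (-0.13 to 0.042), mt-Nd3 (-0.11 to 0.057), mt-Nd4l (-0.11 to 0.061), mt-Nd4 (-0.080 to 0.051), mt-Nd5 (-0.085 to 0.046), mt-Nd6 (-0.14 to 0.025), mt-Tl1 (-0.21 to 0.029), mt-Tm (-0.10 to 0.11), mt-Tw (-0.24 to 0.037), mt-Ta (-0.17 to 0.12), mt-Ts1 (-0.16 to 0.0031), mt-Tk (-0.43 to 0.074), mt-Tt (-0.17 to 0.082), Lrpprc (-0.031 to 0.016), Ppargc1b (-0.0045 to 0.13) and Cox4i1 (-0.038 to 0.065). Without vehicle 7 the median of tRNAs was -0.00088. No paired analysis was run, because the labels name no pairs or blocks and the 2 groups share no sample number. Whether samples were handled in blocks is not known. Among the ratios, only mt-Nd6 to mt-Nd5 had a near-identical copy with counts to add, Gm11407 of mt-Nd5. It had at most 1 count per sample, against at least 32570 of mt-Nd5. Adding it could therefore not move the ratio by a visible amount, and the part of copies without counts was not tested. With 1 sample left out, the difference in tRNA share went up to 0.000161 and that in minus-strand share up to 0.000793 percentage points, both within 1 SD of the groups. Counts of the plus-strand tRNAs were low, with a median of 11.1 per sample, which limits what can be said of them.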

Other observations

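Malat1, an abundant nuclear long noncoding RNA, ranged from 2017 to 5340 CPM in vehicle and from 2127 to 6334 CPM in Visudyne samples, and was lowest in vehicle 1 and Visudyne 12. Its log2 CPM was compared over the 10 samples with those of the 15 mitochondrial mRNAs and rRNAs, a measure chosen after the data were seen; all share the library total. None of the 15 relations passed after adjustment. The nearest was mt-Nd3 (Pearson r = -0.75, permutation p = 0.0125, adjusted 0.187; Spearman rho = -0.73, permutation p = 0.0200, adjusted 0.301). Its r was -0.51 without vehicle 1 and Visudyne 12. Next came mt-Rnr2 (r = -0.65, permutation p = 0.0450, adjusted 0.202; rho = -0.53, permutation p = 0.124, adjusted 0.464), with r = -0.45 without those 2 samples. For mt-Nd5 r was 0.63 (permutation p = 0.0524, adjusted 0.202; rho = 0.58, permutation p = 0.0885, adjusted 0.464), and 0.22 without them. For mt-Nd4 r was 0.63 (permutation p = 0.0538, adjusted 0.202; rho = 0.54, permutation p = 0.115, adjusted 0.464), and 0.28 without them.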
